A study of Mus musculus with 9 samples.

Results

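The clock output factors are 7 transcriptional regulators that relay the circadian clock to other genes. They comprise the activators Dbp, Tef and Hlf, which share a bZIP domain of the PAR type, the bZIP repressor Nfil3, the clock repressor Ciart, and the bHLH repressors Bhlhe40 and Bhlhe41. They were chosen by gene symbol. All 7 were among the 13890 genes of the deposited count table, and all 7 were among the 13364 genes that passed the filter on low counts, which removed genes under 0.5 CPM (counts scaled to a common library size and composition) in more than 4 of the 9 libraries.

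RNA was sequenced from the hearts of 9 NSG males, an immunodeficient mouse strain that lacks mature lymphocytes and accepts human tumour cells. The mice were 8 weeks old at surgery. The series text places euthanasia about 3 weeks after it, and the methods of the study a few days later than that. The 3 sham mice (S, animals 2, 3 and 5) received saline into the spleen and then weekly saline injections. The 3 mice labelled as tumour hosts (T, animals 11, 12 and 15) received HCT116 cells, an established human colorectal cancer line, into the spleen and then weekly saline. The 3 mice of the A + T group (animals 20, 21 and 22) received HCT116 cells and weekly ACVR2B/Fc, a soluble receptor that binds activins and myostatin. In the gene list that accompanies the study, the column that the libraries labelled T follow is headed as ACVR2B against sham and not as HCT against sham. Over 378 genes, the Pearson correlation with the log2 fold changes of T against S was 0.9998 for that column and 0.297 for the HCT column. Whether the heading or the label is at fault was not tested. T is used below as the name on the label, and every direction given for it is that of these 3 libraries.

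The libraries held between 12392222 and 19732471 counts, so that 3 counts correspond to between 0.152 and 0.242 CPM, and every count of the 7 genes was at least 21. Such limits cover counting error only. All 8 cardiomyocyte markers were present in every library, with summed levels between 49120 and 73301 CPM. A pair of libraries stood apart. Airway and lung markers, of which 2 of 6 were in the table, summed to 103 CPM in animal 12 of T and to 1077 CPM in animal 22 of A + T, against at most 2.08 CPM in the other 7 libraries. Animal 12 also held the highest sums of atrial markers (4551 CPM) and of adipocyte markers (68.1 CPM, 3 of 5 in the table). The 5 atrial markers did not move together. Nppa reached 3358 CPM in T, whereas Bmp10 read at most 1.86 CPM in T against at least 66.1 CPM in S. For the 7 genes, a call or fold change that moved with animals 12 and 22 is also given without them. The time of day at euthanasia is not given in the sources used here, and its part in any result was not tested.

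Most cells keep daily time with a loop in which Clock and Arntl (Bmal1) activate the Per, Cry and Nr1d genes through E-boxes, and the products of these genes then repress the loop. Dbp, Tef and Hlf are output activators that bind D-boxes in the promoters of metabolic and detoxification genes, and Nfil3 competes for the same sites as a repressor. Ciart, Bhlhe40 and Bhlhe41 act against Clock and Arntl at E-boxes, and Bhlhe40 and Bhlhe41 are also known to respond to hypoxia, cytokines and glucocorticoids. In the heart, clock output is known for its influence on fuel use, ion channel expression and the daily course of contractility.

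The promoter sequences below are shown because each carries a motif searched for. The E-box, D-box and ROR element are read by clock factors, and the cAMP response element by CREB and ATF factors. They are taken from RefSeq (GRCm38.p6), whose promoter table listed 6 of the 7 genes and not Bhlhe40. Windows of 250 bases before each start site were searched on both strands for the E-box CACGTG, the D-box TTATGTAA or TTACGTAA, the ROR element TAGGTCA and the cAMP response element TGACGTCA, and no match overlapped a match of another motif. Capitals mark a match, and bases that GENCODE places in an exon of the gene are left off. The Ciart stretch lies at chr3:95882252-95882478 on the minus strand, the Bhlhe41 stretch at chr6:145865559-145865670 on the minus strand, the Tef stretch, from the second of 2 listed promoters, at chr15:81811164-81811413 on the plus strand, and the Hlf stretch at chr11:90390918-90391167 on the minus strand.
Ciart: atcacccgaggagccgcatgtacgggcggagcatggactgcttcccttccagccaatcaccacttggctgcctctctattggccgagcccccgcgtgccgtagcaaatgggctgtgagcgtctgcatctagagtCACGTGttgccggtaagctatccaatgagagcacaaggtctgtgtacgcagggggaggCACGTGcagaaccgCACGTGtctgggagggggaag
Bhlhe41: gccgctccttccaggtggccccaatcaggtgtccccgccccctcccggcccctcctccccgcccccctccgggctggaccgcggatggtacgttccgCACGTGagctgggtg
Tef: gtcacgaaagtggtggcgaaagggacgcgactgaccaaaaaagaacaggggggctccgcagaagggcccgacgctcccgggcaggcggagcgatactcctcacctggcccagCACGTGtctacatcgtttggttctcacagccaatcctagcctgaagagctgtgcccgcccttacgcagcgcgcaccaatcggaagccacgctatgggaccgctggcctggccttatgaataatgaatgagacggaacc
Hlf: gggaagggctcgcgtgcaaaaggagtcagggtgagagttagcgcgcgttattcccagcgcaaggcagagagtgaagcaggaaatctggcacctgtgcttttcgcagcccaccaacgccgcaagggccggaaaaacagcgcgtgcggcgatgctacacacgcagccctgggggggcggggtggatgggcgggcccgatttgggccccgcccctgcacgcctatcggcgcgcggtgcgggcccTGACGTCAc

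Ciart held 3 E-boxes, which began 116, 58 and 44 bases before its RefSeq start site. Of 32851 promoters of the same length, 6.02% held at least 1 E-box and 0.061% (20 promoters) held 3 or more. Bhlhe41 held 1 E-box, 153 bases before the start, and each Tef promoter held 1, at 127 and 138 bases. The Hlf window held a cAMP response element 9 bases before the start (1.55% of promoters), and the Nfil3 window held a ROR element 12 bases before the start on the reverse strand (2.23% of promoters). No D-box lay in any of these windows (0.931% of promoters), and the Dbp window held none of the 4 motifs. A match describes letters and not a bound site, and its absence speaks only of the window searched.

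All 7 are protein-coding genes in GENCODE M21 on GRCm38. Dbp lies on chromosome 7 from 45705088 to 45710203 (plus strand), Tef on chromosome 15 from 81802421 to 81826863 (plus), and Hlf on chromosome 11 from 90336536 to 90390895 (minus). Nfil3 lies on chromosome 13 from 52967209 to 52981073 (minus) and Ciart on chromosome 3 from 95878503 to 95882251 (minus). Bhlhe40 and Bhlhe41 share chromosome 6 but lie far apart on it, from 108660629 to 108666925 (plus) and from 145858243 to 145865558 (minus).

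To compare levels between genes, the deposited log2 values were used, which differ from log2 CPM by a constant per gene, as a value scaled for gene length would. In S, Tef was the most abundant of the 7 on this per-length scale (4.33 ± 0.15, SD, n = 3), followed by Bhlhe40 (4.08 ± 0.12) and Nfil3 (3.61 ± 0.09). The ranges of these 3 genes did not overlap. Dbp (1.85 ± 0.24) and Bhlhe41 (1.74 ± 0.32) overlapped each other, as did Bhlhe41 and Hlf (1.33 ± 0.12), and Ciart was the lowest (0.57 ± 0.20). The order in the libraries labelled T was different. There Bhlhe40 (4.68 ± 0.15), Tef (4.56 ± 0.29) and Dbp (4.15 ± 0.83) overlapped at the top, Nfil3 (2.62 ± 0.85), Ciart (2.28 ± 0.87) and Bhlhe41 (1.79 ± 0.32) overlapped in the middle, and Hlf was the lowest (0.36 ± 0.70). In A + T, Tef (4.34 ± 0.15), Bhlhe40 (4.12 ± 0.28) and Dbp (3.44 ± 0.72) again led and overlapped, ahead of Nfil3 (2.55 ± 0.04) and Bhlhe41 (1.69 ± 0.09). Ciart (1.10 ± 1.09) and Hlf (0.78 ± 0.32) came last in A + T, and the Ciart libraries spanned the ranges of both Hlf and Bhlhe41.

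**Figure D1:**
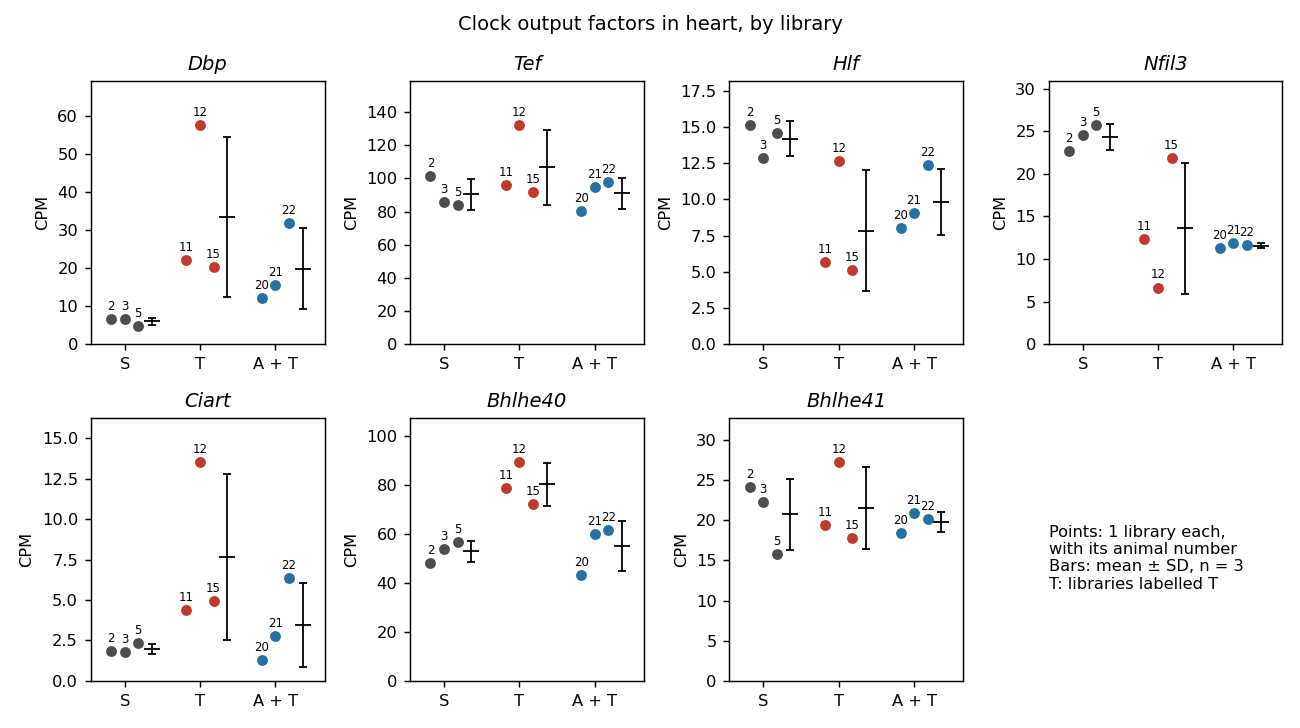
Level of each of the 7 genes in every library, in CPM on a linear axis from 0, by group. Each point is 1 library with its animal number, and the bars give the mean ± SD of 3 libraries. All 3 libraries labelled T lay above all S libraries for Dbp, Ciart and Bhlhe40, and below them for Hlf and Nfil3.

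The comparison of T with S asks, by the labels, how the heart of a tumour host differs from that of a sham mouse. Dbp, the output activator with the widest daily swing in many tissues, was 5.54-fold higher in T, Ciart was 3.93-fold higher and Bhlhe40 was 1.52-fold higher. Hlf and Nfil3 had lower levels in all 3 libraries labelled T than in any S library without passing the adjusted threshold, and Tef and Bhlhe41 overlapped between the groups. By edgeR's quasi-likelihood test with Benjamini-Hochberg adjustment over all genes tested, 3 of the 7 genes were called higher, where 10.3% of all genes were. None was called lower, where 11% of all genes were, although 2 of the 7 were lower at an unadjusted P-value under 0.05 and DESeq2, the likelihood ratio test and limma-voom each called 2 lower. The study's own criteria were a fold change of 1.5 or more together with an unadjusted P-value under 0.05. The study reports fewer genes at these criteria than the edgeR fit used here gave, from a test that it does not name. In this fit, they were met by 5 of the 7 genes and by 14.2% of all genes (1899). The same 5 genes had no overlap between the groups, as had 42.6% of all genes. The median log2 fold change of the 7 genes was 0.24, and that of all genes tested was 0.00.

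Among the PAR bZIP activators, Dbp read 6.58, 6.60 and 4.92 CPM in animals 2, 3 and 5 of S, and 22.2, 57.8 and 20.4 CPM in animals 11, 12 and 15 of T. The groups did not overlap, and the lowest T library was more than 3 times the highest S library. The log2 fold change was 2.47 ± 0.46 (SE), with an adjusted P-value of 0.00433 in edgeR. Animal 12 alone held 57.5% of the Dbp signal of T, and without it the log2 fold change was 1.81 with an adjusted P-value of 0.00924. Dbp was called in all 9 fits that left out 1 library.

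Tef, a close relative of Dbp that activates the same sites, read 101.2, 85.6 and 84.2 CPM in S and 95.9, 132.3 and 91.7 CPM in T. The groups overlapped, with animal 12 the only T library above the S range. Its log2 fold change was 0.24 ± 0.14, with an adjusted P-value of 0.257 in edgeR, and 0.05 without animal 12. Hlf, the third activator, had lower and not higher values in T. It read 15.2, 12.8 and 14.6 CPM in S, and 5.70, 12.7 and 5.146 CPM in T. Animals 11 and 15 lay far below S and animal 12 just under its lowest library. The log2 fold change of Hlf was −0.84 ± 0.30, with an adjusted P-value of 0.0714 in edgeR. Without animal 12 it was −1.38 with an adjusted P-value of 0.00286, and it was also called without animal 22 of A + T (−0.82, adjusted P-value of 0.0474).

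Nfil3, the repressor that binds the same D-boxes, read 22.7, 24.6 and 25.8 CPM in S and 12.3, 6.66 and 21.9 CPM in T. All T libraries lay below S, animal 15 by a small margin and animal 12 by the largest. The log2 fold change was −0.87 ± 0.30, with an adjusted P-value of 0.0671 in edgeR. It was −1.35 with an adjusted P-value of 0.00326 without animal 15, and −0.52 with an adjusted P-value of 0.1 without animal 12. The ratio of Dbp to Nfil3, activator to repressor in CPM, was 0.29, 0.269 and 0.191 in S and 1.8, 8.68 and 0.932 in T. Every T library exceeded every S library in this ratio, and animal 12 had by far the highest. Both follow from the levels of Dbp and Nfil3 given above and are no further result.

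Ciart, a repressor that binds Arntl, had the lowest counts of the 7 in every library but animal 12 of T. There it had 228 counts, against 213 for Hlf and 112 for Nfil3. Ciart read 1.82, 1.78 and 2.31 CPM in S (32 to 35 counts), and 4.40, 13.5 and 4.96 CPM in T (53 to 228 counts). The groups did not overlap, and animal 12 was again far above the rest. The log2 fold change was 1.97 ± 0.56, with an adjusted P-value of 0.0307 in edgeR. Ciart was called in 5 of the 9 fits that left out 1 library. The call was lost without any 1 of the 3 S libraries (adjusted P-values of 0.0953, 0.0995 and 0.0703 without animals 2, 3 and 5) and without animal 12, where the log2 fold change was 1.25 with an adjusted P-value of 0.126. Without animals 2, 3 and 5 in turn, the Ciart log2 fold change was 1.93, 1.9 and 2.09. Calls over all genes went from 2838 to 1797, 1874 and 1859 in those fits. The call of Ciart was also lost with limma-voom and with the deposited log2 values.

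Bhlhe40, an E-box repressor, read 48.1, 54.0 and 56.6 CPM in S and 78.9, 89.5 and 72.1 CPM in T. The groups were far apart relative to the spread within each. The log2 fold change was 0.60 ± 0.14, with an adjusted P-value of 0.0112 in edgeR, and the gene was called in all 9 fits that left out 1 library (log2 fold changes from 0.52 to 0.68). Its paralogue Bhlhe41 read 24.2, 22.2 and 15.8 CPM in S and 19.4, 27.3 and 17.8 CPM in T. These ranges overlapped almost entirely, and the log2 fold change was 0.05 ± 0.18 with an adjusted P-value of 0.862 in edgeR.

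**Figure D2:**
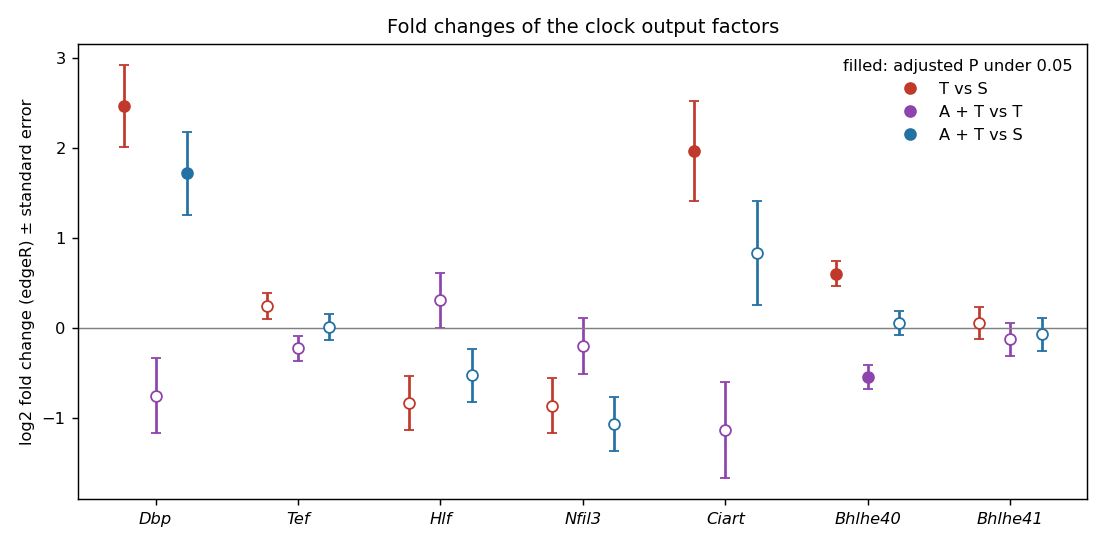
Log2 fold change of each gene in the 3 comparisons, fitted with edgeR on all 9 libraries, with bars of ± 1 standard error. Filled points have an adjusted P-value under 0.05. In T vs. S these are Dbp (2.47), Ciart (1.97) and Bhlhe40 (0.60), in A + T vs. T Bhlhe40 (−0.55) and in A + T vs. S Dbp (1.72).

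Markers of other cell types differed along with these genes. In T, 6 of 6 fibroblast markers and 5 of 6 endothelial markers were called lower than in S, with summed levels of 886 to 1027 CPM against 1699 to 1866 CPM for fibroblasts and 466 to 584 CPM against 809 to 939 CPM for endothelium. Macrophage markers summed to 349 to 390 CPM in S and 330 to 434 CPM in T, and atrial markers to 2999 to 3084 CPM in S and 861 to 4551 CPM in T. Among the 5 atrial markers, 1 (Bmp10) was called lower and 0 higher. Of the 8 cardiomyocyte markers, 2 were called higher and 1 lower. No marker in the table was at 0 in every library. In bulk tissue, fewer cells of a type and less RNA per cell cannot be told apart, and the part of these markers in the levels of the 7 genes was not tested.

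The comparison of A + T with T asks, by the labels, what changes in tumour hosts given ACVR2B/Fc. Bhlhe40 was 1.46-fold lower in A + T than in T and was the only one of the 7 genes to pass the adjusted threshold. Ciart and Dbp had lower means in A + T, but with overlapping libraries, and the other 4 genes differed by 1.09-fold (Bhlhe41) to 1.24-fold (Hlf). With edgeR, 1 of the 7 genes was called lower, where 2.79% of all genes were. None was called higher, where 3.09% of all genes were, and none was higher at an unadjusted P-value under 0.05 or by DESeq2, the likelihood ratio test or limma-voom. None of the 7 met the study's criteria, which 8.11% of all genes did. Only Bhlhe40 had no overlap between the groups, as had 25.4% of all genes. The median log2 fold change of the 7 genes was −0.23, beside 0.01 for all genes tested. This comparison uses the same T libraries as the one before it, so the values of both are given side by side and not as separate evidence.

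Bhlhe40 read 43.2, 59.9 and 61.7 CPM in animals 20, 21 and 22 of A + T, all below the 72.1 CPM of the lowest T library. Its log2 fold change was −0.55 ± 0.14, with an adjusted P-value of 0.044 in edgeR. The call was kept when animal 15 or animal 22 was left out, and it was lost in the other 7 fits that left out 1 library (log2 fold changes from −0.64 to −0.40 over all 9, with the highest adjusted P-value, 0.13, without animal 11). In those 7 fits, calls over all genes went from 786 to between 130 and 535. Against S the log2 fold change of Bhlhe40 in A + T was 0.06 ± 0.14, with an adjusted P-value of 0.835.

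Dbp read 12.2, 15.7 and 32.0 CPM in A + T. Animals 20 and 21 lay below every T library and animal 22 lay between them, so the groups overlapped. The log2 fold change of A + T vs. T was −0.76 ± 0.42, with an adjusted P-value of 0.316 in edgeR, and it ranged from −1.29 without animal 22 to −0.10 without animal 12. Ciart read 1.30, 2.80 and 6.35 CPM in A + T (21 to 103 counts). Its log2 fold change was −1.14 ± 0.53, with an adjusted P-value of 0.238. Without animal 22 it was −1.94 with an adjusted P-value of 0.0471, and without animal 12 it was −0.42. For both genes, the difference between A + T and T was larger without animal 22 and smaller without animal 12.

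Hlf read 8.04, 9.05 and 12.4 CPM in A + T, within the T range. Its log2 fold change was 0.31 ± 0.30, with an adjusted P-value of 0.594 in edgeR, and 0.85 without animal 12, with an adjusted P-value of 0.0548. Nfil3 read 11.3, 11.9 and 11.6 CPM in A + T, a much narrower range than in T. Its log2 fold change was −0.20 ± 0.31, with an adjusted P-value of 0.749. Tef (80.5, 94.6 and 98.0 CPM in A + T, log2 fold change −0.23 ± 0.14) and Bhlhe41 (18.4, 20.9 and 20.1 CPM, −0.13 ± 0.18) overlapped T, with adjusted P-values of 0.376 and 0.729. Beside these results, 5 of 8 macrophage markers and 4 of 6 fibroblast markers were called higher in A + T than in T, with macrophage sums of 576 to 823 CPM against 330 to 434 CPM, and their part in the levels of the 7 genes was not tested.

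The comparison of A + T with S asks, by the labels, what remains different from sham mice in tumour hosts given ACVR2B/Fc. Dbp was 3.28-fold higher in A + T than in S. Nfil3 was at 11.6 ± 0.300 CPM (SD, n = 3) in A + T against 24.3 ± 1.55 CPM in S, and missed the adjusted threshold by a small margin. With edgeR, 1 of the 7 genes was called higher, where 4.67% of all genes were. None was called lower, where 3.64% of all genes were, although 1 of the 7 was lower at an unadjusted P-value under 0.05 and DESeq2, the likelihood ratio test and limma-voom each called 1 lower. The study's criteria were met by 2 of the 7 genes (Dbp and Nfil3) and by 8.91% of all genes. Dbp, Hlf and Nfil3 had no overlap between the groups, as had 32.4% of all genes. The median log2 fold change of the 7 genes was 0.01, beside 0.00 for all genes.

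Every A + T library exceeded every S library in Dbp, with 12.2 CPM in the lowest of A + T and 6.60 CPM in the highest of S. The log2 fold change was 1.72 ± 0.46, with an adjusted P-value of 0.0468 in edgeR. This call held in 3 of the 9 fits that left out 1 library, namely without animal 12, 15 or 20, and was lost in the other 6, with adjusted P-values from 0.055 to 0.131. In those 6 fits, calls over all genes went from 1110 to between 269 and 900. Without animal 22 the log2 fold change of Dbp was 1.19 with an adjusted P-value of 0.116, and neither limma-voom nor the deposited log2 values gave the call. When animals 12 and 22 were left out together, a setting chosen after seeing the data, the log2 fold change was again 1.19, with a smaller standard error (0.16) and an adjusted P-value of 0.00245.

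Nfil3 had a log2 fold change of −1.07 ± 0.30 in A + T vs. S, a 2.1-fold lower level, with an adjusted P-value of 0.0556 in edgeR. Its size hardly depended on any library (−1.11 to −1.03), whereas the adjusted P-value did, and was 0.0103 without animal 12 and 0.0113 without animal 15 of T. The ratio of Dbp to Nfil3 was 1.08, 1.32 and 2.75 in A + T, above all S libraries. This follows from the separate ranges of Dbp and Nfil3 and is no further result. Hlf had a log2 fold change of −0.53 ± 0.29, with an adjusted P-value of 0.282, and its highest A + T library (12.4 CPM) lay just under its lowest S library (12.8 CPM). Ciart had a log2 fold change of 0.83 ± 0.58 with an adjusted P-value of 0.39, and 0.05 without animal 22. Tef (0.01 ± 0.14) and Bhlhe41 (−0.07 ± 0.18) had adjusted P-values of 0.972 and 0.838. Beside these results, 7 of 8 macrophage markers were called higher in A + T than in S, with summed levels of 576 to 823 CPM against 349 to 390 CPM, and fibroblast markers summed to 1228 to 1940 CPM with none called. Endothelial markers summed to 605 to 728 CPM against 809 to 939 CPM in S, with 1 of 6 called lower, and atrial markers to 793 to 2051 CPM against 2999 to 3084 CPM. The part of these cells in the levels of the 7 genes was not tested.

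**Figure D3:**
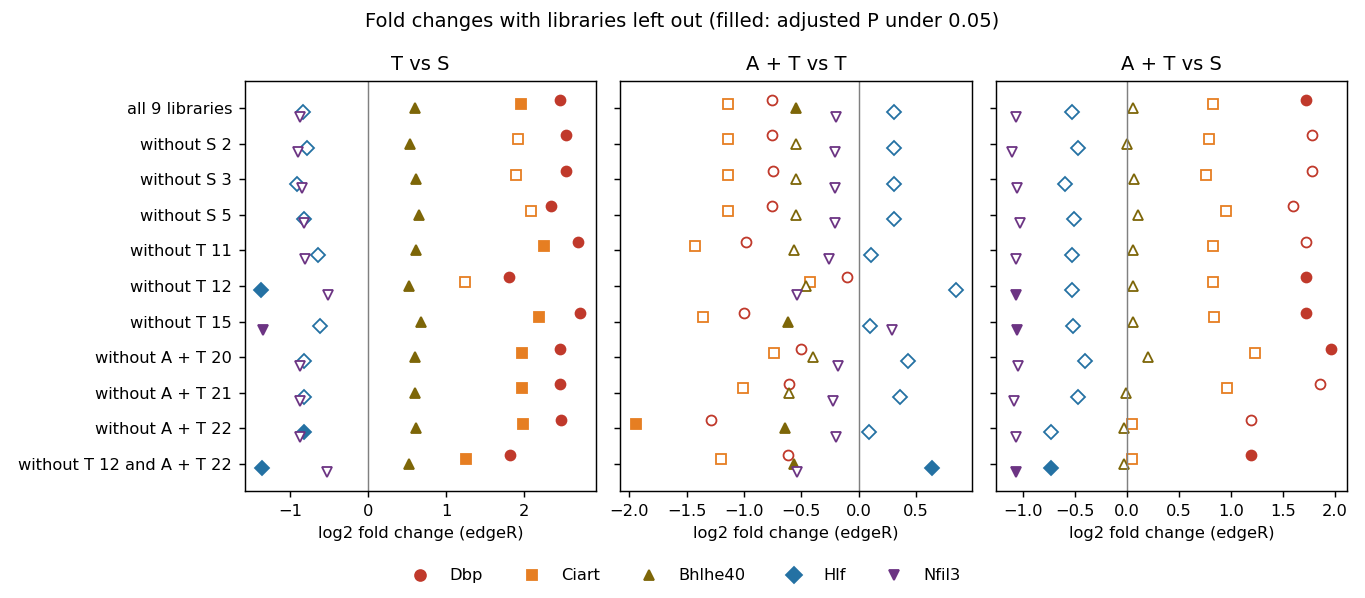
Log2 fold changes of Dbp, Ciart, Bhlhe40, Hlf and Nfil3 in the 3 comparisons, with all 9 libraries and with libraries left out (edgeR). Filled points have an adjusted P-value under 0.05. Dbp and Bhlhe40 stayed called in T vs. S in all settings shown, Ciart lost its call in T vs. S without animal 12 (1.25), and Bhlhe40 in A + T vs. T was filled with all libraries and in 3 of the 10 settings with libraries left out.

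Most of the 7 genes shared their highest library within T and within A + T. In T, animal 12 held the highest level of 6 of the 7 genes and the lowest of Nfil3. In A + T, animal 22 held the highest level of 5 genes, namely Dbp, Tef, Hlf, Ciart and Bhlhe40, and animal 20 the lowest of all 7. The S libraries shared no such order, with animals 2 and 5 each highest for 3 genes. These are the same libraries, animals 12 and 22, that held airway transcripts, and the part of that tissue in these levels was not tested.

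The spread within groups, pooled over the 3 groups as an SD of log2 CPM, was 0.839 for Ciart and 0.651 for Dbp, larger than that of 97.45% and 95.05% of all genes tested. It was 0.498 for Nfil3 and 0.455 for Hlf. Bhlhe41 (0.272), Tef (0.206) and Bhlhe40 (0.200) varied least, and the median of all genes was 0.17. The genes with the largest fold changes were thus also those with the largest differences between animals of 1 group.

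In a setting chosen after seeing the data, animals 12 and 22 were both left out. Those animals held the highest Dbp, Hlf and Ciart levels of their groups, so their removal also narrowed the spread within groups. Calls over all genes went from 2838 to 3531 in T vs. S, from 786 to 875 in A + T vs. T and from 1110 to 1259 in A + T vs. S. Dbp, Ciart, Bhlhe40 and Hlf were called in T vs. S, Hlf and Bhlhe40 in A + T vs. T, and Dbp, Hlf and Nfil3 in A + T vs. S. The log2 fold change of Hlf was then −1.37 in T vs. S (adjusted P-value of 0.000176 in edgeR), 0.64 between A + T and T (0.0438) and −0.73 between A + T and S (0.00997). For Ciart it was 1.26 in T vs. S, with an adjusted P-value of 0.0121, and for Dbp 1.82, with an adjusted P-value of 6.5e-05. Nfil3 stayed uncalled in T vs. S, at −0.53 with an adjusted P-value of 0.0677. Groups of 2 libraries entered these fits, so the values describe 7 animals.

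The core clock loop, the set of genes that drives the 7 output factors, was described next to them from a list of 20 genes of which 19 were tested. In T vs. S, 4 of the 19 were called higher, where 10.3% of all genes were, and 2 lower, where 11% were. The median log2 fold change was 0.33. Without animal 22 of A + T, 11 core loop genes were called in all, while calls over all genes went from 2838 to 3786. Cry1, a repressor of Clock and Arntl, was lower in T, at 7.54 ± 0.943 CPM against 23.4 ± 2.25 CPM in S (log2 fold change −1.64, adjusted P-value of 7.69e-05 in edgeR). Nr1d1 and Nr1d2, nuclear receptors that repress Arntl and Nfil3, were higher, with log2 fold changes of 1.06 and 1.11 and Nr1d1 levels of 119 ± 19.4 CPM against 56.7 ± 2.21 CPM. Arntl was lower, at 24.0 ± 5.97 CPM against 41.2 ± 4.50 CPM (log2 fold change −0.78, adjusted P-value of 0.0337). The Arntl call was lost without animal 2, 3, 5, 12 or 15 (adjusted P-values of 0.109, 0.0883, 0.0535, 0.103 and 0.0724) and with the deposited log2 values, and its log2 fold change was −0.60 without animal 12. Without animals 2, 3, 5, 12 and 15 in turn, calls over all genes went from 2838 to 1797, 1874, 1859, 2219 and 2337. Per2 read 7.49 ± 3.44 CPM in S and 11.6 ± 5.32 CPM in T. Its log2 fold change was 0.63 with an adjusted P-value of 0.366 in edgeR, and 0.18 without animal 12.

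Between A + T and T, no core loop gene was called by edgeR, where 3.09% of all genes were called higher and 2.79% lower. The median log2 fold change was −0.17, and 2 genes were higher and 5 lower at an unadjusted P-value under 0.05. DESeq2 called 1 gene lower, the likelihood ratio test 2 and limma-voom 0. Without animal 22, edgeR called 2 in all, while calls over all genes went from 786 to 1006. Against S, 3 core loop genes were called higher in A + T and 1 lower, with a median of 0.01. Over all genes, 4.67% were called higher and 3.64% lower. Cry1 had a log2 fold change of −1.34 (adjusted P-value of 0.000836 in edgeR), Nr1d2 of 0.79 and Nr1d1 of 0.66. Without animal 2 of S, 1 of the 19 genes was called, and without animal 3, 2 were, while the calls over all genes went from 1110 to 269 and 300. Arntl was at 29.2 ± 8.68 CPM in A + T and was not called against S (log2 fold change −0.50, adjusted P-value of 0.188) or against T (0.28, 0.512).

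Arntl and Dbp, the driver and its output, were also compared within each library. The ratio of Dbp to Arntl in CPM was 0.145, 0.157 and 0.135 in S, 0.749, 3.25 and 0.832 in T, and 0.346, 0.474 and 1.66 in A + T. All T and A + T libraries exceeded all S libraries, and animals 12 and 22 stood highest in their groups. Both follow from the levels of Dbp and Arntl, whose ranges in T and A + T lay apart from S. In the same 2 animals Arntl was lowest of its group (17.8 and 19.2 CPM) and Per2 was highest (17.5 and 9.30 CPM). Cry1 read 7.49 and 8.81 CPM there and Nr1d1 122 and 80.7 CPM, near the other animals of their groups.

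**Figure D4:**
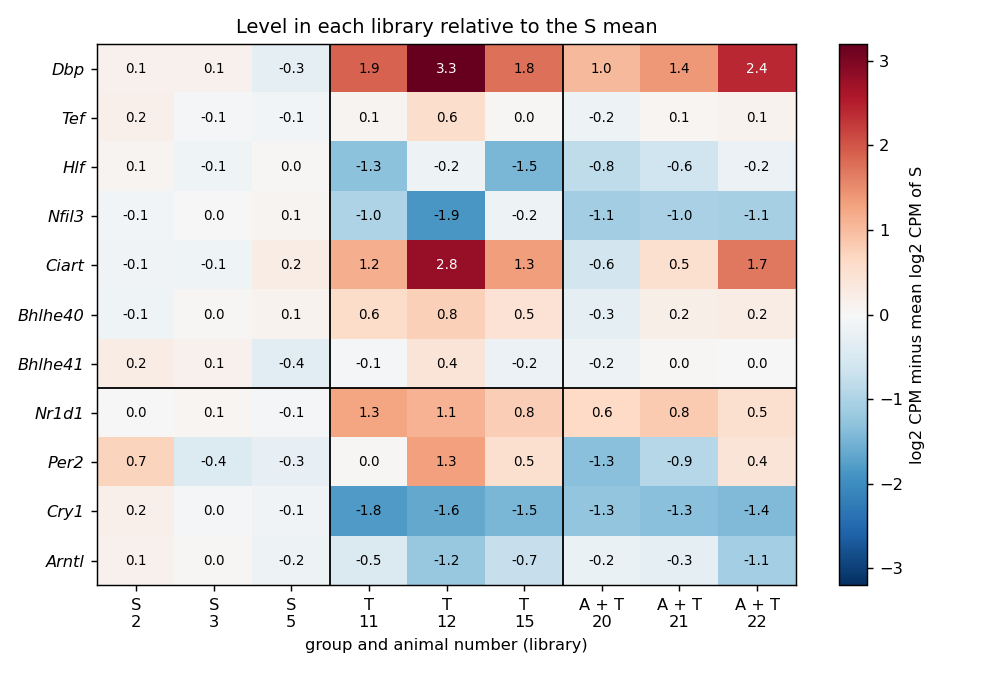
Level of the 7 genes and of 4 core loop genes in each library, as log2 CPM minus the mean log2 CPM of S. Columns are libraries with group and animal number, and the number in a cell is the difference. Dbp, Ciart and Per2 are highest within T in animal 12 (3.3, 2.8 and 1.3) and within A + T in animal 22 (2.4, 1.7 and 0.4). Nr1d1 and Cry1 differ little between animals of a group.

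Further genes known to be rhythmic or controlled by the clock in muscle formed a list of 22, all tested. Like the other lists, it was chosen with earlier results of these data known, so its counts are a description and no test. In T vs. S, the median log2 fold change was 0.47. Of the list, 12 were called higher, where 10.3% of all genes were, and 2 lower, where 11% were. The largest were Pdk4, which restrains glucose oxidation (log2 fold change 3.00, adjusted P-value of 0.00263 in edgeR), Ucp3, a mitochondrial carrier (2.40, 0.00211), Fkbp5, a glucocorticoid-induced chaperone (1.59, 0.00127), and Tspan4, a tetraspanin (1.40, 0.000749). Between A + T and T, 1 was higher at an unadjusted P-value under 0.05 and by DESeq2. With edgeR 0 were called higher, where 3.09% of all genes were, and 5 lower, where 2.79% were. The largest were Fkbp5 (−1.58), the cell cycle inhibitor Cdkn1a (−1.02), Herpud1, which acts in protein quality control (−0.79), and the metabolic regulator Klf15 (−0.76). The median log2 fold change of the list was −0.19. The count of 5 was 10 without animal 22 and 3 without animal 12, 20 or 21, while the calls over all genes went from 786 to 1006 without animal 22 and to 426, 335 and 481 without animals 12, 20 and 21. Against S, 3 were called higher in A + T, where 4.67% of all genes were, and 0 lower, where 3.64% were. The 3 were Ucp3, Pdk4 and Tspan4, with log2 fold changes of 3.09, 2.85 and 1.21, and the list median was 0.07. At an unadjusted P-value under 0.05, 2 were lower, and 0 were by DESeq2, the likelihood ratio test and limma-voom.

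Set beside the clock output factors, Fkbp5 and Cdkn1a had the course of Bhlhe40, with levels in A + T close to S (24.4 ± 2.12 CPM against 24.1 ± 8.12 CPM for Fkbp5). Pdk4 and Ucp3 were called higher than S in both T and A + T. So was Dbp, whose call in A + T held in 3 of 9 fits that left out 1 library. From T to A + T the means went from 33.5 to 19.9 CPM for Dbp, from 80.1 to 129.5 CPM for Ucp3 and from 2620 to 2366 CPM for Pdk4. Within T, animal 12 was highest for Dbp and lowest for Pdk4 and Ucp3. These courses are a description of the values and were not tested as a difference between genes.

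Because Bhlhe40 and Bhlhe41 respond to hypoxia, 16 known hypoxia targets were described as well, of which 15 were tested. In T vs. S, 5 were called higher, where 10.3% of all genes were, and 4 lower, where 11% were. The median log2 fold change was 0.00. Bnip3, a mitophagy receptor, was higher (1.25, adjusted P-value of 8.89e-05 in edgeR), as was the glucose transporter Slc2a1 (0.66, 0.00746). The prolyl hydroxylases Egln3 (−0.85, 0.00493) and P4ha1 (−0.63, 0.00361) were lower. Without animal 5 of S, 5 of the 15 were called in all, while calls over all genes went from 2838 to 1859. Between A + T and T, Bnip3 was the only one called by edgeR's quasi-likelihood test (−0.70, 0.00609 and a list median of −0.08), whereas DESeq2 called 3 lower, the likelihood ratio test 2 and limma-voom 1. With the quasi-likelihood test 0 were called higher, with 1 higher at an unadjusted P-value under 0.05 and 0 by the other tools. Over all genes, the quasi-likelihood test called 2.79% lower and 3.09% higher. In A + T vs. S, Egln3 (−0.87), P4ha1 (−0.74) and P4ha2 (−0.63) were called lower and Bnip3 (0.54) higher, and the list median was 0.09. Over all genes, 3.64% were called lower and 4.67% higher. Without animal 2 of S, 1 of the 15 was called, while calls over all genes went from 1110 to 269. Bhlhe40 stood beside targets that differed from S in both directions, and Bhlhe41 was not called in any of the 3 comparisons. The part of hypoxia in the levels of Bhlhe40 and Bhlhe41 was not tested.

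The genes whose profile over the 9 libraries came nearest to each factor were found by the root-mean-square distance between log2 CPM values, each centred on its own mean. These are descriptions over 9 libraries that share depth and group structure. For Dbp, whose own values lay 1.1 from their mean by this measure, the nearest were Amica1 at 0.345, Gbp10 at 0.357 and Apod at 0.411. For Ciart (1) they were Amica1 again at 0.291, Cdo1 at 0.419 and A630020A06 at 0.434. For Nfil3 (0.635) they were Gm14057 at 0.189, 4631405J19Rik at 0.246 and Siah2 at 0.294, and for Hlf (0.545) Olfm1, Cdh11 and Tpm2 at 0.135 to 0.143.

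The flatter factors had nearer neighbours, as a small spread allows. For Bhlhe40 (0.318) these were Gpr19 at 0.0927, Ttll7 at 0.118 and Zwint at 0.119, for Tef (0.198) Abcg2, Tmpo and Mapk12 at 0.0677 to 0.0994, and for Bhlhe41 (0.225) 9130401M01Rik, Pcgf1 and Tsr3 at 0.0995 to 0.126. No factor was among the 3 nearest genes of another. Among the 21 pairs of the 7 factors, Tef and Bhlhe41 were the nearest at 0.143, Dbp and Ciart lay 0.538 apart, and Dbp and Nfil3, the activator and repressor of the same D-boxes, were the farthest apart at 1.67. The PAR bZIP activators themselves were not near one another, with Tef and Hlf 0.541, Dbp and Tef 0.973 and Dbp and Hlf 1.38 apart.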

How the data were processed

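The 7 genes and the lists were chosen with earlier results of these data known. The authors aligned paired-end reads of mRNA libraries with STAR (genome mm10). Reads that mapped uniquely and to the right strand were counted per RefSeq gene by featureCounts. They deposited counts per gene without normalization, and log2 values per gene whose difference from log2 CPM after TMM scaling was constant for each gene (median SD over libraries 0.00255 for 12254 genes). Per the labels, RNA isolation and sequencing were done together for all hearts, and each library is 1 numbered animal.

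From the counts, all 9 libraries were fitted with edgeR 4.0.16 (R 4.3.3), TMM normalization and the quasi-likelihood F test, with Benjamini-Hochberg adjustment over 13364 genes. The standard error is the log2 fold change over the square root of F. CPM values are TMM-scaled. Pairs of libraries within a group differed by more than counting noise (chi-square per gene of at least 7.48). The ribosomal gene Rn45s took between 4.57% and 19.6% of counts. The named genes were the 7 factors, up to 4 called genes per list and comparison with the largest log2 fold change, Arntl, Per2 and Nr1d1, and the 3 nearest profiles. An item that this rule names is not reported here. Alternatives were limma-voom (limma 3.58.1), the likelihood ratio test of edgeR, DESeq2 1.42.0, other normalizations and filters, the deposited log2 values with limma, and each library left out. Figures were drawn with matplotlib 3.10.9 in Python 3.11.15.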

Additional observations from a re-analysis of the deposited data

How the results depend on the processing

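No paired analysis was possible because the groups share no animal numbers. In T vs. S, 3 of the 7 genes were called, and 5 at the study's thresholds, at an adjusted P-value under 0.1, by DESeq2 and by the likelihood ratio test, the additions being Hlf and Nfil3. With each library left out the count lay between 2 and 4. In A + T vs. T, 1 was called (Bhlhe40), and 0 at the study's thresholds, with upper-quartile normalization, with library size only, with only the groups compared in the fit and with the deposited log2 values. The count was 2 without animals 12 and 22, and between 0 and 2 with each library left out. In A + T vs. S, 1 was called (Dbp), and 2 (with Nfil3) at the study's thresholds, at an adjusted P-value under 0.1, by DESeq2, by the likelihood ratio test, with library size only and with only the groups compared. It was 0 with the deposited log2 values, 3 without animals 12 and 22, and between 0 and 2 with each library left out. limma-voom also called 1 gene there, Nfil3 in place of Dbp. Calls over all genes moved with the settings as well. With each library left out, they went from 2838 to between 1765 and 3786 in T vs. S. They went from 786 to between 130 and 1006 in A + T vs. T, and from 1110 to between 269 and 1086 in A + T vs. S. With the deposited log2 values they were 2526, 513 and 672, and with only the groups compared 3402, 217 and 894. The cause of these changes was not tested.

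Changes of sign were limited to fold changes that were not called. With each library left out, Bhlhe41 ranged from −0.16 to 0.18 in T vs. S, from −0.24 to 0.09 in A + T vs. T and from −0.23 to 0.06 in A + T vs. S, Nfil3 from −0.54 to 0.29 in A + T vs. T, and Tef from −0.04 to 0.11 and Bhlhe40 from −0.03 to 0.20 in A + T vs. S. Without animals 12 and 22, Bhlhe41 was −0.15 in T vs. S and 0.07 in A + T vs. T, and Tef −0.04 and Bhlhe40 −0.03 in A + T vs. S. With limma-voom, Nfil3 was 0.02 in A + T vs. T. With 3 animals per group, and 21 to 103 counts of Ciart in A + T, small differences may have been missed. The smallest difference that could be detected was not tested.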
